A study of Mus musculus with 6 samples.

Results

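The interleukin-1 (IL-1) family ligands and receptors were examined as 10 genes taken by symbol from the count table of whole mouse livers: the agonists Il1a and Il1b, the antagonist Il1rn, the receptors Il1r1, Il1r2 and Il1rl1, the shared accessory chain Il1rap, the cytokines Il18 and Il33, and the IL-18 binding protein Il18bp. These were 10 of 20140 listed genes, and all 10 were among the 16370 genes that passed the filter on low counts. The livers came from 3 groups of 2 biological replicates, all labelled day 21: the sham group, labelled control and given PBS (2 livers), the group labelled intra-C, called here the premetastatic niche (PMN) group (2 livers), and the group labelled intra-S, called here the metastasis group (2 livers). The labels name CT26 cells for the last 2 groups and do not spell out intra-C and intra-S, which are read here, after the models that the paper describes, as implantation in the cecum and injection through the spleen. CT26 is a mouse colon carcinoma line of BALB/c origin. The labels give no strain, sex or age. The paper describes both CT26 models in BALB/c mice, and its methods give 6 to 10 weeks for mice of all tumor models. Every sample was the whole liver with all its cells, so the tumor cells in a metastasis liver, whose RNA is also mouse RNA, were counted together with the host cells, and the state of the liver and the route of implantation changed together and cannot be told apart. In such bulk samples, fewer cells of a type and less RNA per cell cannot be told apart either.

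IL-1α and IL-1β bind the receptor encoded by Il1r1, which then recruits the accessory chain encoded by Il1rap and signals through MyD88 and IRAK kinases to NF-κB. The pathway is held in check by the receptor antagonist encoded by Il1rn, which occupies the receptor without recruiting the accessory chain, and by the decoy receptor encoded by Il1r2, which binds ligand and does not signal. IL-1β and IL-18 are made as precursors that caspase-1 cleaves in inflammasomes, IL-18 is captured by the binding protein encoded by Il18bp, and IL-33 is an alarmin whose receptor, ST2, is encoded by Il1rl1. In the liver, Kupffer cells and infiltrating myeloid cells are known sources of IL-1, and hepatocytes answer it with acute phase proteins.

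The members lie in part next to each other in the genome. In the RefSeq annotation of build GRCm38.p6, Il1r2 (chr1:40084692-40125230), Il1r1 (chr1:40222480-40316201) and Il1rl1 (chr1:40404864-40465418) follow each other on the plus strand, with 97249 and 88662 bases between them. Il1a (chr2:129299609-129310186) and Il1b (chr2:129364569-129371164) are neighbors on the minus strand, 54382 bases apart, and Il1rn (chr2:24336860-24351491, plus) lies far from both on the same chromosome. Il18bp (chr7:102015074-102018232, minus), Il18 (chr9:50554700-50581841, plus), Il1rap (chr16:26581509-26730128, plus) and Il33 (chr19:29925113-29960718, plus) stand alone. Exons of 4 members share bases with a gene on the other strand in GENCODE vM21, 222 bases of Il1a with Gm14023, 25 of Il1b with Il1bos, 552 of Il1rap with Gm20319 and 80 of Il18bp with Numa1, and reads from those bases cannot be told apart if counting ignored strand, which is not given in the sources used here.

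Il1a, Il1b, Il1r2 and Il18bp were higher than in sham livers in both tumor-bearing groups, as described below, and their promoters are shown for that reason. Each line gives the 250 bases before a RefSeq transcript start (GRCm38.p6, 5′ to 3′ on the gene's strand), at chr2:129309973-129310222 (minus), chr2:129371140-129371389 (minus), chr1:40085843-40086092 (plus) and chr7:102018233-102018482 (minus) in this order. These starts lie 214 (Il1a), 25 (Il1b), 1401 (Il1r2) and 0 (Il18bp) bases inside the gene bounds given above, so that the Il1r2 window lies within the gene as bounded there, and those of Il1a and Il1b in part. Capitals mark a match to any of 4 motifs searched on both strands: TATAAA, TTGCNNAA (a C/EBP half-site pair), TTCNNNGAA (a STAT site) and the NF-κB consensus.
Il1a: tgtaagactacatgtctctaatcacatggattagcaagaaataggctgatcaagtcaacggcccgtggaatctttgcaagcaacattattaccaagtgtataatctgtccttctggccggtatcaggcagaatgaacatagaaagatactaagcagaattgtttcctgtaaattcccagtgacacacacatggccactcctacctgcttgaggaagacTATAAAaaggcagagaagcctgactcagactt
Il1b: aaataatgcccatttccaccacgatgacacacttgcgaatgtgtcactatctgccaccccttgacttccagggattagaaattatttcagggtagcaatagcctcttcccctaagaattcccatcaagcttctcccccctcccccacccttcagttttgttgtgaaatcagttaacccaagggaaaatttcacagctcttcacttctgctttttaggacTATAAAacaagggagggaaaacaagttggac
Il1r2: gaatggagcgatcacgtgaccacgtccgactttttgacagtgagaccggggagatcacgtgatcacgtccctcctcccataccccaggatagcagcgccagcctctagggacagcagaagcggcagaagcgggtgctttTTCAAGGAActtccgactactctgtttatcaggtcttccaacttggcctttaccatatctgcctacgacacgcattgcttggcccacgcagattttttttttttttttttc
Il18bp: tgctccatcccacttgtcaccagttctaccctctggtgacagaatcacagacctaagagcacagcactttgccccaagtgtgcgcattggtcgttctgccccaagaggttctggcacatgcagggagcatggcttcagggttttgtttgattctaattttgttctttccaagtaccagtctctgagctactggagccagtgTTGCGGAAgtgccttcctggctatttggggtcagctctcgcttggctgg
The neighbors Il1a and Il1b both held TATAAA, starting 32 and 31 bases before these transcript starts, a motif that was added after these sequences had been read and that 12.4% of the 32851 mouse promoter windows hold. Il1r2 held a STAT site 111 bases before the transcript start used, against 7.02% of the windows, and Il18bp a C/EBP half-site pair 49 bases before its transcript start, against 9.56%. The NF-κB consensus, found in 7.25% of the windows, was in none of the 4 stretches, which says only that these letters were not in this window. Among the members not shown, TATAAA was in windows of Il33, 203 and 29 bases before their transcript starts, and of Il18. The C/EBP half-site pair was in windows of Il1r1, Il1rl1 and Il33, and the NF-κB consensus in a window of Il1r1. A match is a description of letters and was not tested for function.

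The libraries held 32838321 to 43368309 counts. Values are given as CPM, the count of a gene scaled to the size of its library, after edgeR's TMM scaling, and a difference is called when the adjusted p of edgeR's quasi-likelihood test over all 16370 genes was under 0.05. With 2 livers a group an exact permutation test of a single gene cannot go below p = 0.333. The labelled tissue was borne out by its markers, since Alb ranged from 84337 to 156536 CPM over the 6 livers. The metastasis livers differed more from each other than the other pairs did: of 12679 genes with a mean of at least 1 CPM, 5.31% differed by over 4-fold between them, against 0.820% between the PMN livers and 0.528% between the sham livers. Both tumor-bearing groups are compared with the same 2 sham livers, so the comparisons share their controls.

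In PMN livers, 5 of the 10 members were higher than in sham livers and 0 were lower, where 4.92% of all genes tested were called higher and 2.38% lower. The median log2 fold change was 2.19 over the members and 0.01 over all genes tested. The CPM of the PMN and sham livers did not overlap for 8 of 10 members, against 68.4% of all genes. In metastasis livers, 5 members were higher and 1 was lower than in sham livers, where 6.78% of all genes were called higher and 3.95% lower. The median log2 fold change was 2.44 over the members and 0.04 over all genes, and 8 of 10 members did not overlap, against 60.4% of all genes. Il1a, Il1b, Il1r2 and Il18bp were called in both comparisons, Il1r1 in the PMN livers, and Il1rl1 and Il1rap, the lower one, in the metastasis livers. With Il1rl1, which had at most 2 counts in a sham liver, set to its bound, both medians were the same. Il1rl1 passed the filter only through the metastasis livers, where it was high, and without it 4 of 9 members were higher in metastasis livers and 5 of 9 in PMN livers. Without sham liver 1 or sham liver 2 in the fit, 0 members were called in either comparison, and also 0 of all 17584 or 17494 genes tested. Without PMN liver 1 or PMN liver 2, 0 members were called in PMN livers, with 65 and 61 of all genes, and 3 in metastasis livers, with 543 and 492 of all genes (17603 and 17623 tested).

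**Figure D1:**
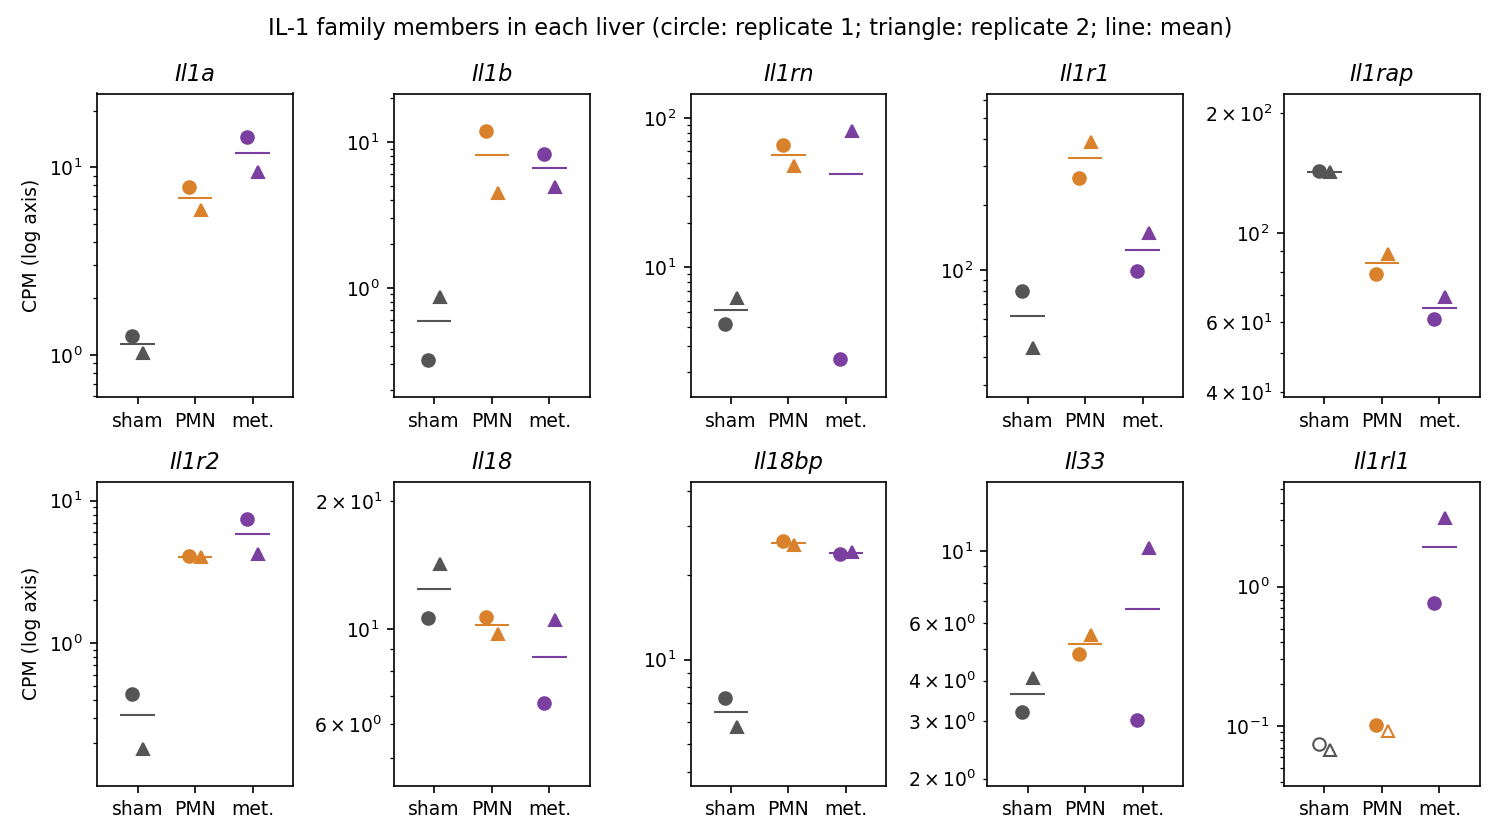
CPM of each member in each of the 6 livers on log axes, by group (met., metastasis), with circles for replicate 1, triangles for replicate 2 and a line at the mean of the 2 livers. Open symbols stand at the value of 3 counts, for livers with at most 3 counts of Il1rl1, and no mean is drawn there. The sham livers lie below all others for Il1a, Il1b, Il1r1, Il1r2 and Il18bp and above all others for Il1rap, and the metastasis livers lie far apart for Il1rn.

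The agonist Il1a, which encodes IL-1α, a cytokine released from dying as well as activated cells, had 1.26 and 1.02 CPM in sham, 7.84 and 5.94 in PMN and 14.4 and 9.39 in metastasis livers. The 3 groups did not overlap, with the sham livers lowest and the metastasis livers highest. Il1a was 6.05-fold higher in PMN than in sham livers (log2 fold change 2.60, SE 0.34, edgeR adjusted p = 0.0147) and 10.5-fold higher in metastasis than in sham livers (3.39, SE 0.35, adjusted p = 0.00663).

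Il1b, which encodes the inflammasome-processed IL-1β, had 0.320 and 0.860 CPM in sham, 11.9 and 4.45 in PMN and 8.31 and 4.93 in metastasis livers. Both tumor-bearing groups lay above the sham livers and overlapped each other, and in the sham livers the values rested on 13 and 38 counts. Il1b was 13.8-fold higher in PMN (log2 fold change 3.78, SE 0.69, edgeR adjusted p = 0.0316) and 11.1-fold higher in metastasis livers (3.47, SE 0.69, adjusted p = 0.0303). With only the 2 groups compared in the fit, the edgeR adjusted p was 0.00753 in PMN and 0.0569 in metastasis livers.

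The antagonist Il1rn had 4.19 and 6.27 CPM in sham, 66.0 and 48.0 in PMN and 2.42 and 81.8 in metastasis livers. Metastasis liver 1 was the lowest and metastasis liver 2 the highest of all 6 livers, 33.8-fold apart, while the PMN livers lay clear above the sham livers. Between the metastasis livers, 24 of the 12679 genes, Il1rn among them, differed at least as much. In the fit over all livers Il1rn did not pass the test in PMN livers (10.9-fold, log2 fold change 3.45, SE 1.33, edgeR adjusted p = 0.159) or in metastasis livers (3.01, SE 1.30, adjusted p = 0.179). Fitted with the PMN and sham livers alone, the same PMN difference had an edgeR adjusted p of 0.000595. Without metastasis liver 1 the metastasis difference was 3.97 (adjusted p = 0.000422), and without metastasis liver 2 it turned to -1.11 (adjusted p = 0.0428), so the direction in metastasis livers rested on which liver was kept.

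Of 14 tested genes known to respond to IL-1, 11 were lower in metastasis liver 1 than in metastasis liver 2 and 3 (Il6, Vcam1 and Mmp9) were higher, where 51.3% of all genes tested were lower. Saa1, an acute phase apolipoprotein, had 613 CPM in metastasis liver 1 and 6512 in metastasis liver 2, Saa2 had 182 and 5266, and the neutrophil chemokine Cxcl1 had 1.57 and 191. Cxcl2, another neutrophil chemokine, which did not pass the filter on low counts, went the other way with 5.71 and 0.0981 CPM, and Il6 had 1.40 and 0.515. Among the members, Il1a, Il1b and Il1r2 were higher in metastasis liver 1 than in metastasis liver 2 and the other 7 were lower, among them Il1r1 (99.2 and 149 CPM), Il18 (6.71 and 10.5), Il33 (3.03 and 10.2) and Il1rl1 (0.758 and 3.09). The summed CPM of the markers was 1110 in metastasis liver 1 and 439 in metastasis liver 2 for neutrophils, 438 and 870 for Kupffer cells and 23.6 and 185 for cholangiocytes. What sets the 2 livers apart was not tested.

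The signaling receptor Il1r1 had 80.2 and 43.9 CPM in sham, 266 and 386 in PMN and 99.2 and 149 in metastasis livers. The groups did not overlap, with the PMN livers highest. Il1r1 was 5.25-fold higher in PMN than in sham livers (log2 fold change 2.39, SE 0.39, edgeR adjusted p = 0.0236), and in metastasis livers the difference of 1.00 (SE 0.38) had an adjusted p of 0.136. Compared directly, Il1r1 was 2.63-fold lower in metastasis than in PMN livers, which did not pass the test (log2 fold change -1.39, SE 0.38, edgeR adjusted p = 0.292), while DESeq2 gave that difference an adjusted p of 0.0295.

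Il1rap encodes the accessory chain without which the IL-1, IL-33 and IL-36 receptors do not signal, and its soluble form is made by hepatocytes. It had 143 and 142 CPM in sham, 79.1 and 88.8 in PMN and 60.8 and 69.1 in metastasis livers. It was the only member with both tumor-bearing groups below the sham livers and no overlap between any groups. The difference was 2.19-fold in metastasis livers (log2 fold change -1.13, SE 0.19, edgeR adjusted p = 0.0208) and 1.70-fold in PMN livers (-0.76, SE 0.19), where edgeR's adjusted p was 0.0644 and DESeq2's 0.00569. With only the 2 groups compared in the fit, edgeR's adjusted p was 0.0635 in metastasis and 0.00709 in PMN livers.

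The decoy receptor Il1r2, which neutrophils and macrophages carry and shed, had 0.443 and 0.181 CPM in sham, 4.07 and 4.05 in PMN and 7.49 and 4.22 in metastasis livers. The sham values rested on 18 and 8 counts, of which the second is under the count minimum of 10, and lay below all others. Il1r2 was 13.0-fold higher in PMN livers (log2 fold change 3.70, SE 0.54, edgeR adjusted p = 0.0177) and 18.7-fold higher in metastasis livers (4.22, SE 0.54, adjusted p = 0.0109).

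**Figure D2:**
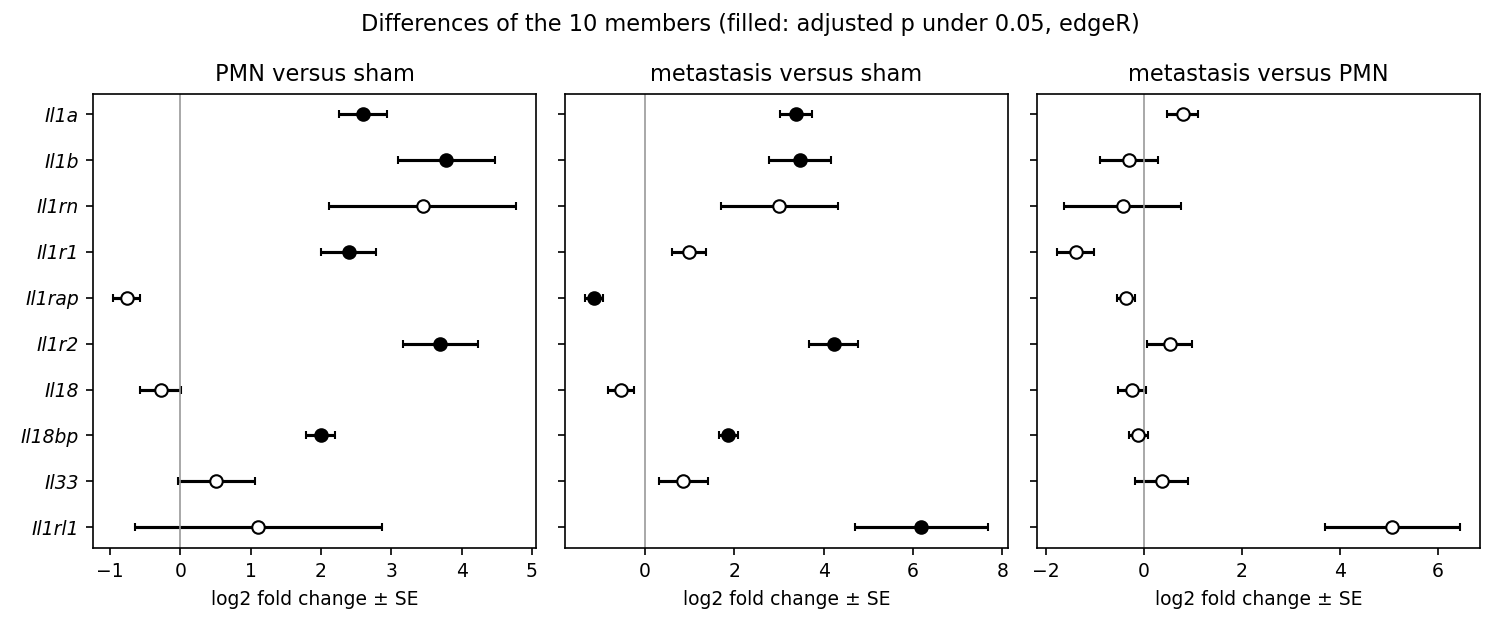
Log2 fold change of each member with its standard error from the edgeR fit over all 6 livers, in each of the 3 comparisons. Filled points passed an adjusted p of 0.05: 5 in PMN versus sham, 6 in metastasis versus sham, of which Il1rap lies below 0, and 0 in metastasis versus PMN. The fitted Il1rl1 values rest on at most 4 counts in each sham and PMN liver.

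In the IL-18 arm, the inhibitor was higher in both tumor-bearing groups and the cytokine did not pass the test in either. Il18, which Kupffer and epithelial cells hold as a ready precursor, had 10.6 and 14.2 CPM in sham, 10.7 and 9.74 in PMN and 6.71 and 10.5 in metastasis livers. The PMN livers overlapped the sham livers, the metastasis livers lay below them, and neither difference passed the test (log2 fold change -0.28, SE 0.29, edgeR adjusted p = 0.587 in PMN livers, and -0.53, SE 0.30, adjusted p = 0.281 in metastasis livers). Il18bp, whose protein binds IL-18 and keeps it from its receptor, had 7.31 and 5.77 CPM in sham, 26.5 and 25.6 in PMN and 23.7 and 24.3 in metastasis livers. The livers of each tumor-bearing group lay within 1.04-fold and 1.02-fold of each other, well above the sham livers. Il18bp was 3.98-fold higher in PMN livers (log2 fold change 1.99, SE 0.21, edgeR adjusted p = 0.00785) and 3.66-fold higher in metastasis livers (1.87, SE 0.21, adjusted p = 0.00742).

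In the IL-33 arm, Il33 had 3.20 and 4.07 CPM in sham, 4.81 and 5.54 in PMN and 3.03 and 10.2 in metastasis livers. The metastasis livers spanned the values of all others, and neither difference passed the test (log2 fold change 0.51, SE 0.55, edgeR adjusted p = 0.597, and 0.87, SE 0.55, adjusted p = 0.333). Its receptor Il1rl1 was the rarest member, with 0 and 2 counts in sham, 4 and 0 in PMN and 26 and 126 in metastasis livers (the last 0.758 and 3.09 CPM). Only the metastasis livers were above 4 counts. Against the value of 3 counts in the sham livers, the mean of the metastasis livers was at least 27.1-fold higher, at least 10.7-fold in metastasis liver 1 and at least 43.6-fold in metastasis liver 2. edgeR gave an adjusted p of 0.0486, which is no independent support, since Il1rl1 passed the filter on low counts only through these livers. This call held in 3 of 13 alternative analyses, with adjusted p from 0.000555 to 0.263. Markers of basophils, mast cells and type 2 innate lymphoid cells, which are known to carry ST2, gave 0 calls of 6 tested in edgeR in either comparison. At an unadjusted p under 0.05, 2 were higher in PMN and 3 in metastasis livers, and DESeq2 called Mcpt8 in both and Gata2 in metastasis livers.

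No member was called between metastasis and PMN livers, where edgeR called 0% of all genes (0 of 16370, with 2193 at an unadjusted p under 0.05 and 524 called by DESeq2). The CPM of 6 of 10 members did not overlap between these groups, against 43.3% of all genes. At an unadjusted p under 0.05, edgeR put Il1a and Il1rl1 higher and Il1r1 lower in metastasis livers, with a log2 fold change of 0.79 (SE 0.32) for Il1a and -1.39 (SE 0.38) for Il1r1, and DESeq2 called Il1rl1 and Il1r1. Il1b, Il1r2 and Il18bp differed by -0.31 (SE 0.60), 0.53 (SE 0.46) and -0.12 (SE 0.20).

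Levels of different members were compared per length, as TPM, which also divides by the length of the gene, averaged over the 2 livers of a group. In sham livers the accessory chain Il1rap led with 28.4 TPM, before Il1r1 (20.8) and Il18 (16.3), which overlapped each other. Il18bp (6.97), Il1rn (4.18) and Il33 (2.81) followed, and Il1a (0.726) and Il1b (0.693) overlapped each other above Il1r2 (0.173) and Il1rl1 (0.0068). In PMN livers Il1r1 (96.4 TPM), Il1rn (39.9) and Il18bp (24.4) stood ahead of Il1rap (14.7). They were followed by Il18 (11.8) and Il1b (8.33), which overlapped, then by Il1a (3.84) and Il33 (3.52), which overlapped too, and by Il1r2 (1.97) and Il1rl1 (0.013). In metastasis livers the order of the means was Il1r1 (34.0), Il1rn (28.4), Il18bp (20.8), Il1rap (10.6), Il18 (9.30), Il1b (6.28), Il1a (6.15), Il33 (4.25), Il1r2 (2.61) and Il1rl1 (0.482). The ranges of neighbors in this order overlapped, except between Il18bp and Il1rap and between Il1r2 and Il1rl1.

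The balance within each liver was read as ratios of TPM. The ratio of the antagonist Il1rn to the summed agonists Il1a and Il1b was 2.85 and 3.02 in sham, 2.78 and 4.26 in PMN and 0.102 and 5.56 in metastasis livers. The PMN livers thus overlapped the sham livers, with agonists and antagonist both at higher levels, and metastasis liver 1 was the only liver with more agonist than antagonist transcript. The ratio of the signaling receptor Il1r1 to the decoy Il1r2 was 110 and 147 in sham, 39.5 and 57.7 in PMN and 8.02 and 21.3 in metastasis livers. The 3 groups did not overlap, and the metastasis livers were lowest, but the sham ratios rest on 18 and 8 counts of Il1r2.

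The ratio of Il1r1 to its partner chain Il1rap was 0.945 and 0.520 in sham, 5.65 and 7.31 in PMN and 2.74 and 3.61 in metastasis livers. In every tumor-bearing liver Il1r1 exceeded Il1rap, and in both sham livers it did not. The ratio of Il18bp to Il18 was 0.557 and 0.328 in sham, 2.01 and 2.12 in PMN and 2.86 and 1.87 in metastasis livers. The inhibitor exceeded the cytokine in all 4 tumor-bearing livers and in neither sham liver. These ratios carry no test beyond the permutation limit given above.

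**Figure D3:**
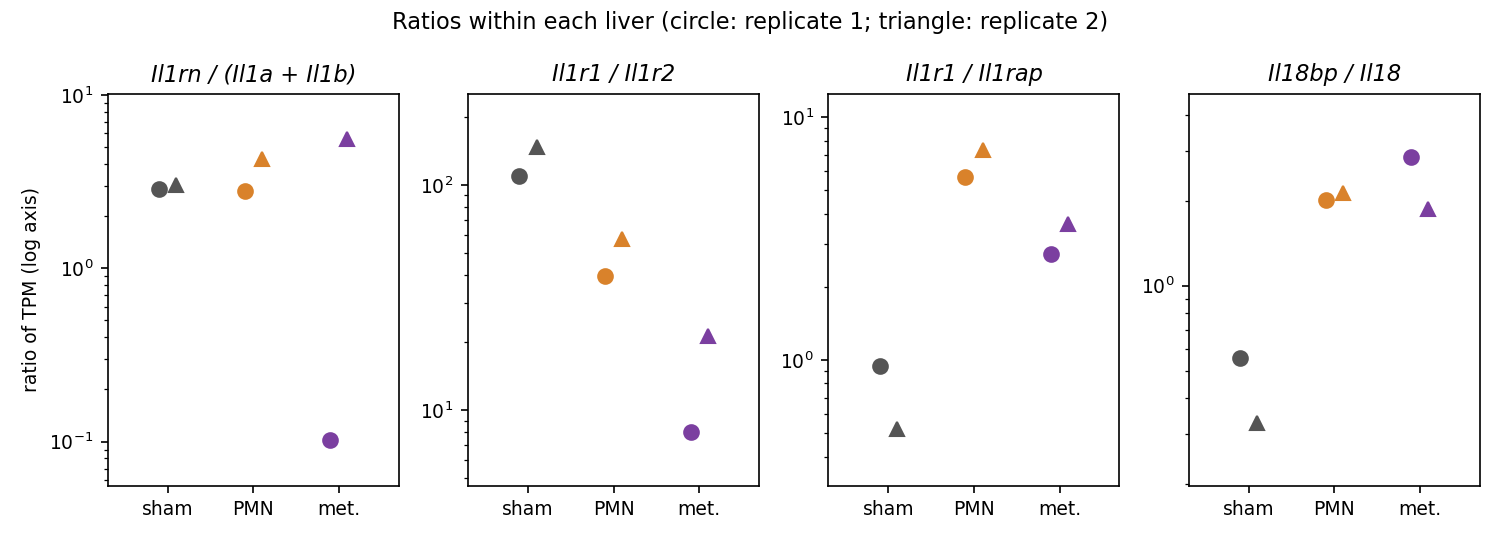
Ratios of TPM within each liver on log axes, by group (met., metastasis), with circles for replicate 1 and triangles for replicate 2. The Il1r1 to Il1r2 ratio runs from 110 and 147 in sham livers, on 18 and 8 counts of Il1r2, to 8.02 and 21.3 in metastasis livers without overlap. The Il1r1 to Il1rap and Il18bp to Il18 ratios lie above the sham values in all 4 tumor-bearing livers. The Il1rn ratio of metastasis liver 1 stands apart at 0.102.

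Of 11 further family ligands and receptors, 4 were in the table and tested. Il18rap, the accessory chain of the IL-18 receptor, was higher in both groups, with 0.443 and 0.362 CPM in sham, 1.35 and 3.12 in PMN and 8.66 and 5.20 in metastasis livers. The 3 groups did not overlap (log2 fold change 2.46, SE 0.54, edgeR adjusted p = 0.0470 in PMN livers, and 4.10, SE 0.56, adjusted p = 0.0132 in metastasis livers). Il18r1, Il1rl2 and the inhibitory receptor Sigirr did not pass in either group. In PMN and metastasis livers the log2 fold changes of Il18r1 were 1.74 and 1.64 (SE 0.70 and 0.70). Those of Il1rl2 were 0.61 and 1.52 (SE 0.57 and 0.56). Sigirr, with -0.005 and -0.06 (SE 0.28 and 0.28), had 14.7 to 25.6 CPM over all livers.

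Of the 28 genes of receptor signaling down to NF-κB, 2 were higher and 0 lower in PMN livers, and 3 were higher and 0 lower in metastasis livers. Of all genes tested, 4.92% and 6.78% were called higher, so that these counts of edgeR calls lay near the background. The medians were 0.36 and 0.46 in log2 fold change, against 0.01 and 0.04 over all genes. At an unadjusted p under 0.05, edgeR put 8 of the 28 higher and 1 lower in PMN livers, and 8 higher and 0 lower in metastasis livers. Of all 16370 genes, 2493 and 2817 were higher at that p. DESeq2 called 5 and 6 of the 28 higher, against 1709 and 2065 of all genes, and 0 lower. Rel, an NF-κB subunit of hematopoietic cells, had 4.75 and 3.39 CPM in sham, 11.0 and 11.5 in PMN and 9.97 and 8.12 in metastasis livers, and was called in both (edgeR adjusted p = 0.0319 and 0.0461). The adaptor Myd88 was called in PMN livers (log2 fold change 0.96, SE 0.21, edgeR adjusted p = 0.0476). The brakes Irak3, a kinase-dead IRAK of myeloid cells, and Tnfaip3, the deubiquitinase A20, were called in metastasis livers. Their log2 fold changes there were 2.78 and 2.40 (SE 0.65 and 0.57, edgeR adjusted p = 0.0465 and 0.0473). Irak3 had 0.443 and 0.204 CPM in sham, on 18 and 9 counts, 2.06 and 2.16 in PMN and 3.21 and 1.25 in metastasis livers. The second sham count is under the count minimum of 10. For Irak3 the PMN livers lay above the sham livers and within the range of the metastasis livers. In PMN livers edgeR gave Irak3 an adjusted p of 0.0595 and Tnfaip3 one of 0.225, and DESeq2 called Irak3 there. The kinases Irak1, Irak4, Map3k7, Chuk and Ikbkb and the adaptor Traf6 did not pass in either group, with log2 fold changes from -0.30 to 0.83. Irak2 was the gene lower in PMN livers at an unadjusted p (log2 fold change -1.25, SE 0.52, edgeR adjusted p = 0.185). It had 17.6 and 22.9 CPM in sham, 6.97 and 10.1 in PMN and 21.7 and 6.99 in metastasis livers.

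Of the 16 inflammasome and processing genes, 5 were higher in PMN and 7 in metastasis livers, against 4.92% and 6.78% of all genes tested. In either group 0 were lower, also at an unadjusted p under 0.05 and by DESeq2. The medians were 1.29 and 1.85, against 0.01 and 0.04 over all genes. Of these calls, 4 in PMN livers (Nlrp3, Nlrp12, Mefv and Naip1) and 3 in metastasis livers (Nlrp3, Nlrp12 and Mefv) were of genes under the count minimum of 10 in both sham livers, which passed the filter only through the tumor-bearing livers and so are no independent support. Of all genes called higher, 101 of 806 in PMN and 175 of 1110 in metastasis livers were under it in both sham livers. The sensor Nlrp3 had 0.0985 and 0.0453 CPM in sham, 1.20 and 1.67 in PMN and 1.22 and 1.42 in metastasis livers, on 4 and 2 counts in the sham livers. Nlrp12, Naip5 and Mefv, which encodes pyrin, were also called in both groups, Naip1 in PMN livers, and Aim2, the adaptor Pycard and Casp4 in metastasis livers. Casp1, whose protein cleaves both precursors, had 2.02 and 1.43 CPM in sham, 4.53 and 3.22 in PMN and 3.61 and 9.03 in metastasis livers. The tumor-bearing livers lay above the sham livers, but Casp1 did not pass (edgeR adjusted p = 0.195 and 0.0635). DESeq2 called Casp1 higher in metastasis livers. Gsdmd, the pore protein through which IL-1β leaves cells, stayed between 19.2 and 28.2 CPM in all livers (adjusted p = 0.940 and 0.737).

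Of 14 tested genes known to respond to IL-1, 7 were higher in PMN and 9 in metastasis livers, against 4.92% and 6.78% of all genes tested. The medians were 3.07 and 3.93, against 0.01 and 0.04 over all genes. In both groups 0 were called lower, against 2.38% and 3.95% of all genes. Sod2, a mitochondrial superoxide dismutase, was lower in both at an unadjusted p under 0.05 in edgeR and was called lower in both by DESeq2. The serum amyloids Saa1, Saa2 and Saa3, the iron-binding Lcn2, the acute phase proteins Orm1 and Orm2 and the adhesion molecule Vcam1 were called in both groups. Icam1 and Mmp9 were called in metastasis livers, and Mmp9 was under the count minimum of 10 in 1 sham liver. Vcam1, which endothelial cells raise under IL-1, had 15.1 and 10.1 CPM in sham, 98.5 and 120 in PMN and 115 and 89.5 in metastasis livers (edgeR adjusted p = 0.00702 and 0.00579). Lcn2 had 7.76 and 7.65 CPM in sham, 1508 and 2819 in PMN and 1628 and 3400 in metastasis livers. Many of these genes also respond to other cytokines, and the part of IL-1 was not tested.

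Of 5 tested genes known to respond to IL-18, edgeR called 0 in either group. At an unadjusted p under 0.05, edgeR put Cxcl9 and Cxcl10 lower in PMN livers, and DESeq2 called Cxcl10 there, while in metastasis livers both counts were 0. Cxcl9 had 16.6 and 12.0 CPM in sham, 3.56 and 3.22 in PMN and 0.700 and 6.35 in metastasis livers. Of 4 tested genes known to respond to IL-33, Chil3 was called in both groups and Ccl24 in metastasis livers. Chil3, a chitinase-like protein of alternatively activated macrophages that is also abundant in neutrophil precursors, had 0.0493 and 0 CPM in sham, 7.74 and 18.9 in PMN and 58.6 and 10.5 in metastasis livers. With 2 and 0 counts in the sham livers, it too passed the filter only through the tumor-bearing livers. Without Chil3, edgeR called 0 of these genes in PMN and 1 in metastasis livers. At an unadjusted p under 0.05, Chil3 included, edgeR put 3 of the 4 higher in PMN and 4 in metastasis livers, against 2493 and 2817 of all 16370 genes. DESeq2 called Ccl17, Ccl24 and Chil3 higher in both groups.

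**Figure D4:**
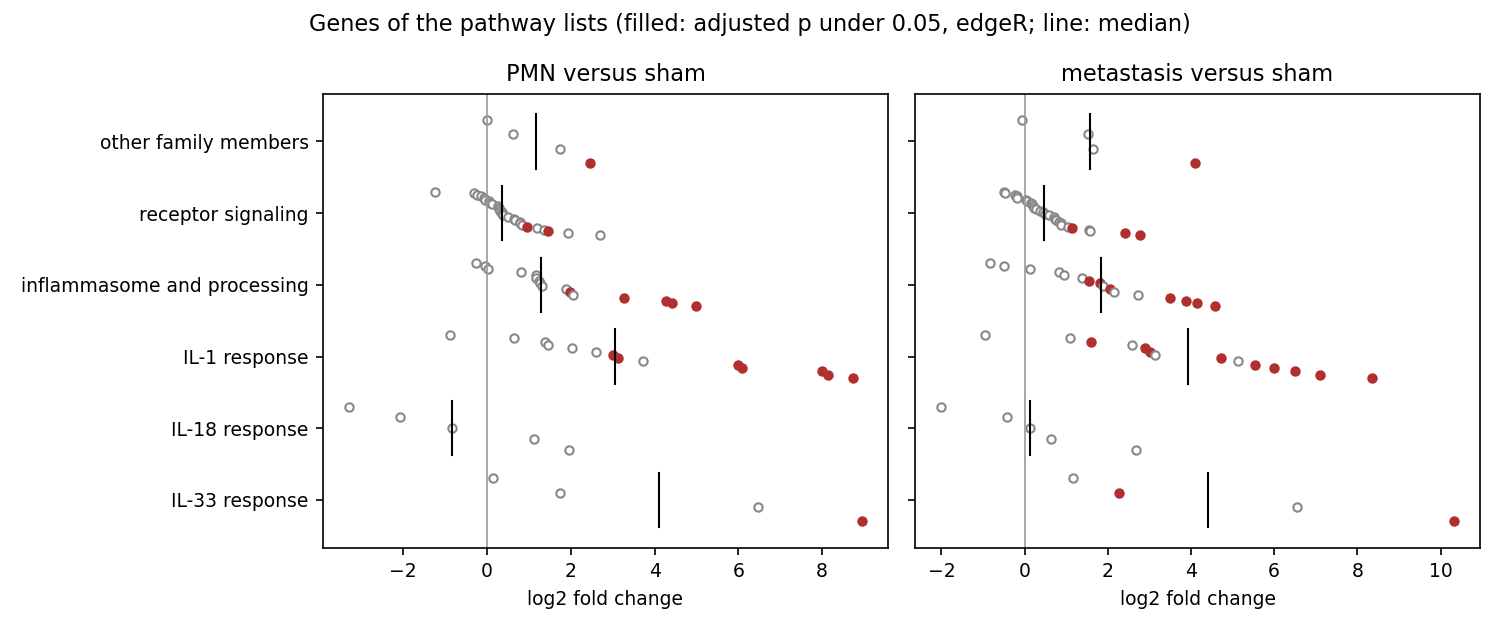
Log2 fold changes of the tested genes of 6 pathway lists in PMN versus sham and in metastasis versus sham livers, with 1 point per gene, filled where the adjusted p was under 0.05, and a line at the list's median. The called genes all lie to the right of 0, and the medians are highest for the lists of 14 IL-1 response genes and 4 IL-33 response genes.

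Markers of myeloid and endothelial cells had log2 fold changes above 0 in both tumor-bearing groups, and all or a part of them were called higher. Of all genes tested, 4.92% were called higher in PMN and 6.78% in metastasis livers. All 12 neutrophil markers were higher in both tumor-bearing groups, with a summed level of 3.87 and 5.11 CPM in sham, 296 and 653 in PMN and 1110 and 439 in metastasis livers, and Camp, Mpo and Elane were at 0 in both sham livers. Of the 12, 7 were under 10 counts in both sham livers and passed the filter only through the tumor-bearing livers. Of 10 monocyte and macrophage markers 5 were higher in each group (sums of 89.0 to 142 CPM in sham livers and 378 to 496 in the tumor-bearing livers). Of 7 Kupffer cell markers 6 were higher in PMN and 5 in metastasis livers (151 to 158 CPM against 438 to 942). Of 7 endothelial markers 4 were higher in each group (84.4 to 92.8 CPM against 207 to 346).

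Of 9 stellate cell and fibroblast markers 3 were higher in metastasis livers and 0 in PMN livers in edgeR, where 1 was lower at an unadjusted p under 0.05 and by DESeq2. Of 6 T and NK cell markers edgeR called 0, with 1 higher at an unadjusted p under 0.05 and by DESeq2 in metastasis livers and 0 in PMN livers. Hepatocyte markers summed to 106758 to 150060 CPM in PMN and 133319 to 185157 in metastasis livers against 108172 to 115464 in sham livers, and of 8 edgeR called only Cyp3a11, lower in PMN livers, while DESeq2 called it lower in both groups and also Ttr lower and Tat higher in PMN livers. Of 5 cholangiocyte markers Sox9 was higher in metastasis livers. In PMN livers edgeR called 0, with 2 higher at an unadjusted p under 0.05 and Spp1 called by DESeq2. Only 2 of the 5 had a log2 fold change above 0 in PMN livers, and their median was -0.65. The part of these cell types in the levels of the members was not tested.

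**Figure D5:**
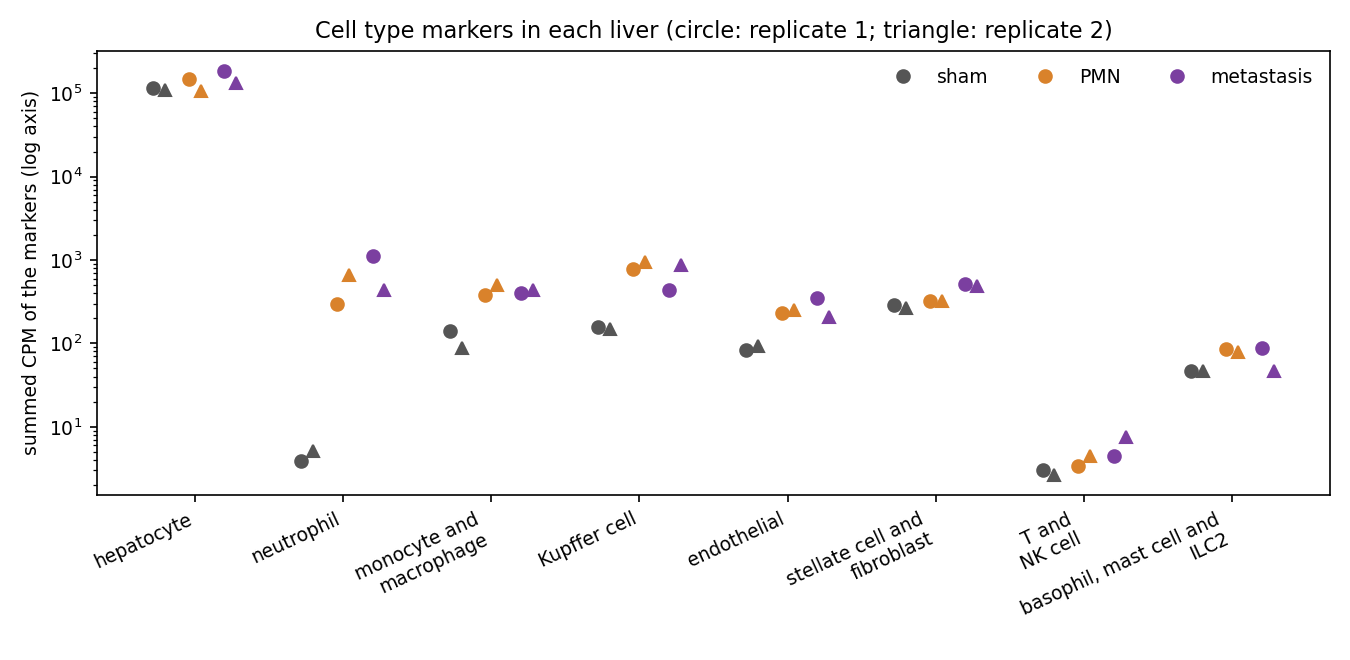
Summed CPM of the markers of 8 cell types in each liver on a log axis, with circles for replicate 1 and triangles for replicate 2. The neutrophil sum runs from 3.87 and 5.11 CPM in sham livers to between 296 and 1110 in the tumor-bearing livers, the macrophage, Kupffer cell and endothelial sums lie above the sham values in all of these, and the hepatocyte sum is at least 106758 CPM in every liver.

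The genes most like each member called higher, other than Il1rl1 with its 0 to 4 counts in 4 of the livers, were taken as the 3 with the highest Pearson correlation of log2 CPM over the 6 livers among genes with a mean of at least 5 CPM, as a description over few points that share the group differences. For Il18bp these were Myo1f, Nfkb2 and Cd163 (r of 0.997, 0.996 and 0.995). For Il1r2 they were Slc44a2, Ms4a4a and Ing5 (0.999, 0.999 and 0.996), for Il1r1 Gramd1a, Cic and Gas6, for Il1a Lbr, Rasd1 and Jcad, and for Il1b Nup153, Rsrc2 and Ppfibp1.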

How the data were processed

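Livers were sequenced as poly(A)-selected mRNA. According to the submitters' processing notes and the methods, the authors aligned reads to mm10 with HISAT2 2.1.0, counted unique exonic reads with featureCounts of Subread 2.0.6 and deposited raw counts per gene, together with TPM values that the authors made from those counts. The annotation and the strand setting are not given in the sources used here. Counts were tested here in R 4.3.3 with edgeR 4.0.16 (quasi-likelihood test, TMM, filterByExpr with a count minimum of 10, 1 fit over all 6 livers, Benjamini-Hochberg adjustment over 16370 genes). The replicates are biological by the series' design text, which does not say whether mice were pooled. A count of 0 was read as up to 3 counts, 0.0679 to 0.0928 CPM.

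Alternatives were DESeq2 1.42.0, no TMM, no filter on low counts, the replicate number as a block, limma 3.58.1 on log2(TPM + 1) and log2(TPM + 0.1), only the 2 groups compared, and leaving out each liver. The members and the gene lists were chosen with earlier results of these data known. All members are named, and called genes of the lists may be named. Uncalled ones are given with values or with the outcome of another test for which they are named. Lists are described by counts and medians, with no set test. Promoters and coordinates come from RefSeq (GRCm38.p6, where all 10 members matched by symbol) and GENCODE vM21, of the reference strain and not of these mice. Figures were drawn with matplotlib 3.10.9. The genes most like Il1rap are not reported here.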

Additional observations from a re-analysis of the deposited data

How the results depend on the processing

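Without TMM scaling the median log2 fold change of all genes moved from 0.01 to -0.25 in PMN and from 0.04 to -0.23 in metastasis livers against sham, and the calls turned from 806 higher and 389 lower to 569 and 801, and from 1110 and 646 to 838 and 1116. No member changed direction under that scaling or under DESeq2. DESeq2 called 2819, 3530 and 524 genes in PMN versus sham, metastasis versus sham and metastasis versus PMN, and 2 members in the last. With only the 2 groups compared in the fit, 4771 genes and 7 of 9 tested members were called in PMN versus sham and 392 genes and 3 members in metastasis versus sham. The cause was not tested.

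Leaving out 1 liver leaves a group with 1 liver, which is then assumed to vary like the others. Over these fits the called genes ranged from 0 to 4657 in PMN versus sham, 0 to 5693 in metastasis versus sham and 0 to 2884 in metastasis versus PMN, and the called members from 0 to 7, 0 to 8 and 0 to 3. Without sham liver 1 or 2, 0 members and 0 genes were called against sham. Without PMN liver 1 or 2, 0 members were called in PMN livers (65 and 61 genes) and 3 in metastasis livers (543 and 492 genes). Without metastasis liver 1, 7 members and 4657 of 17564 genes were called in PMN livers and 8 members and 2900 genes in metastasis livers. Without metastasis liver 2 these were 7 members and 4587 of 17429 genes, and 7 members (4 higher and 3 lower) and 5693 genes, with 3 members and 2884 genes in metastasis versus PMN. The log2 fold change of Il1rl1 in PMN livers ranged from -3.03 to 4.10, on at most 4 counts a liver, that of Il1rn in metastasis livers from -1.11 to 3.97 and that of Il33 from -0.26 to 1.49. Between metastasis and PMN livers the ranges were -0.86 to 0.57 for Il1b, -4.56 to 0.52 for Il1rn, -0.61 to 0.038 for Il18 and -0.77 to 0.98 for Il33. These were the only members that reversed. Replicate numbers did not pair the livers (correlations of same-numbered deviations of -0.03, 0.08 and 0.04). With the replicate number as a block, 932, 1507 and 0 genes and 5, 5 and 0 members were called.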
